A study of Mus musculus with 15 samples.

Results

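The 9 keratins that are used to tell the cell layers of the mammary gland apart were followed in cultured mouse mammary epithelial cells. They were Krt7, Krt8, Krt18 and Krt19, grouped as luminal, Krt5, Krt14, Krt15 and Krt17, grouped as basal, and Krt23, which was kept apart. Each was read from the probe sets annotated with that gene symbol alone, taking the one with the highest mean over the 15 arrays. Every member had exactly 1 such probe set, so all 9 of 9 were measured, among 19938 genes in all. They were set by gene name, with earlier results of these data known.

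RNA of each sample was hybridised to 1 Affymetrix Mouse Gene array, and the values are linear probe set intensities. There were 5 groups of 3 arrays. In p53- Rb- Myc+ cells p53 and Rb had been deleted and MYC was overexpressed. In p53- Myc+ cells p53 was deleted, MYC was overexpressed and Rb was wild type. In p53- Rb- cells both genes were deleted and MYC was wild type, in p53- cells p53 alone was deleted, and in WT cells all 3 genes were wild type. The deletions were made in culture with Cre recombinase from an adenovirus, and MYC came from a retrovirus. All cultures came from female mice of 8 weeks and grew with horse serum, EGF, insulin, cholera toxin and hydrocortisone. The labels do not say whether control virus was used, or whether the arrays of a group stand for separate animals or cultures, so the p-values reflect only how far these arrays differ within groups, which may be technical.

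Keratins are the intermediate filament proteins of epithelial cells. A filament is built from pairs of a type I and a type II chain, so the chains are made in partner sets. Krt8 (type II) with Krt18 (type I) is the partner set of simple and luminal epithelium, where Krt7 (type II) and Krt19 (type I) are added. Krt5 (type II) with Krt14 (type I) is the set of basal and myoepithelial cells, and Krt17 and Krt15, both type I, accompany it in basal layers and skin appendages. Krt23 is a type I keratin of less settled function. In the mouse the type I members lie on chromosome 11 and the type II members on chromosome 15, with the exception of Krt18, which sits beside its partner Krt8 on chromosome 15.

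The start regions of 4 members are shown because Krt8 and Krt18 are luminal partners side by side on the chromosome, and Krt18, Krt7 and Krt5 had the lowest fold changes of all members in p53- Myc+ against p53- arrays. Each runs from 250 bases before to 50 bases after the RefSeq gene start (build GRCm38.p6), 5′ to 3′ on the gene's strand, at chr15:102004293-102004592 (minus strand) for Krt8, chr15:102027966-102028265 (plus) for Krt18, chr15:101412153-101412452 (plus) for Krt7 and chr15:101712856-101713155 (minus) for Krt5. Capitals mark matches on either strand to any of 6 short motifs: CACGTG (the E-box known for MYC), CAGGTG (reverse CACCTG, the E-box known for SNAI and ZEB factors), TGANTCA (AP-1), GGGCGG (reverse CCGCCC, the GC box of Sp1 and KLF factors), GCCNNNGGC (TFAP2) and TATAAA (reverse TTTATA, the TATA box).
Krt8: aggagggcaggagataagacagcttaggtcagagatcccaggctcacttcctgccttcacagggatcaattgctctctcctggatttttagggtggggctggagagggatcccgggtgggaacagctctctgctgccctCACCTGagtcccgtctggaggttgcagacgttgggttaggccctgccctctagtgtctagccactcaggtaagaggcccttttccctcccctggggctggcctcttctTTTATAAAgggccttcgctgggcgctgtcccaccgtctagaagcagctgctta
Krt18: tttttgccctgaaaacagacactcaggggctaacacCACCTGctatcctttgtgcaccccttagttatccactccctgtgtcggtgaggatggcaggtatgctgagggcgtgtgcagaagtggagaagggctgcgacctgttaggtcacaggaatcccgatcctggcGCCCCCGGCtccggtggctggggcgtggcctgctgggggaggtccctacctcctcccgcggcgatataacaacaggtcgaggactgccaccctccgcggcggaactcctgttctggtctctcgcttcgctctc
Krt7: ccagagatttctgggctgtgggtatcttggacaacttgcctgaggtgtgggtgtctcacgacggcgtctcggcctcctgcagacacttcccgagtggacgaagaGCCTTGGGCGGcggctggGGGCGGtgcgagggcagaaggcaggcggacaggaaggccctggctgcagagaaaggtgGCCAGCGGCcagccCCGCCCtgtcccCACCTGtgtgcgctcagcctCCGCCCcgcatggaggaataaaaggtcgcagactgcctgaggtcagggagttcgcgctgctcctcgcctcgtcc
Krt5: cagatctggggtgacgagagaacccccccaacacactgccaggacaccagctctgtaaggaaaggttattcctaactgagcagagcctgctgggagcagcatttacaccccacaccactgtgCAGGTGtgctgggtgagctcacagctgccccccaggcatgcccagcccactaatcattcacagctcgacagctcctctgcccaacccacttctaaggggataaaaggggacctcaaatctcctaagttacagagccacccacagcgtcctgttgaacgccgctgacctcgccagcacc

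RefSeq start regions were at hand for 6 of the 9 members, the 4 above, Krt14 and Krt23, and the Krt14 window lay 1480 bases inside the gene from its 5′ end. CAGGTG was found in 5 of the 6, all but Krt14, against 20.2% of 32851 start regions of the same length. In Krt7 it began 44 bases before the start, in Krt8 111, in Krt5 128 and in Krt18 214 bases before it. CACGTG was found in Krt23 (7.15% of all start regions) and TGANTCA in 0 of the 6 (7.81%). GGGCGG was found in Krt7 (35.7%), with 4 matches, and GCCNNNGGC in Krt7 and Krt18 (16.6%), where 1 of the Krt7 matches overlapped a GC box. The TATA box motif was found in Krt8 (13.6%), on both strands at overlapping positions that began 3 bases and 1 base before the start. These are matches of letters and not measured binding.

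The label checks came before the keratins. The Rb1 probe set read 52.7, 55.3 and 64.2 on p53- Rb- arrays, against 147, 181 and 157 on p53- arrays (log2 fold change -1.27 ± 0.16 SE, limma adjusted p = 1.64e-05). It was also low, at 48.0, 26.8 and 34.5, on arrays labelled p53- Myc+, whose Rb is labelled wild type, against 20.0, 18.3 and 17.9 on p53- Rb- Myc+ arrays. The mouse Myc probe set averaged 96.3 on p53- Rb- Myc+ and 128 on p53- Myc+ arrays, against 856 on p53- Rb-, 930 on p53- and 888 on WT arrays, so it was lower where the labels give MYC overexpression. The sources used here give neither the species of the retroviral MYC nor the place of the probes, so these readings do not check the virus. Directions below follow the labels. Array medians ran from 41.3 to 54.9, arrays of a group correlated at r between 0.963 and 0.989 across genes, and arrays of different Myc labels between 0.775 and 0.865.

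The labelled cell type was checked with 8 epithelial markers outside the keratins, among them Epcam, the cadherin genes Cdh1 and Cdh3, and claudins. All 8 lay below the array median on every p53- Rb- Myc+ and every p53- Myc+ array. All 8 lay above it on every p53- Rb- and every WT array, and 7 of 8 did so on the p53- arrays, where the mucin gene Muc1 was below it. Epcam averaged 11.6 ± 2.6 on p53- Rb- Myc+ and 10.3 ± 4.1 on p53- Myc+ arrays, against 1682 ± 272.8 on p53- Rb- arrays, 1634 ± 32.5 on p53- arrays and 1627 ± 133.3 on WT arrays (SD, n = 3 each). The part of these markers in the keratin results was not tested. In RNA of a whole culture, fewer cells of a type and less RNA per cell cannot be told apart.

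In p53- Myc+ against p53- cells 7 of the 9 keratins had groups that did not overlap, all of them lower. Groups did not overlap for 42.6% of all genes there, in either direction. In p53- Rb- Myc+ against p53- Rb- cells the same 7 did not overlap, again all lower, where 51.2% of all genes did not. On the 6 arrays with the Myc+ label Krt19 lay above the array median on all 6, Krt8 on 3 and Krt18, Krt7, Krt5, Krt14 and Krt17 on 0, while all 7 lay above it on each of the 9 other arrays. Krt15 lay around the array medians and Krt23 below them in every group. Among the 36 steps between neighbouring group means, ordered within each member, 10 passed the test. In 7 of these 10 cases it was the step between the lowest group without and the highest group with the Myc+ label, and the other 3 steps lay between p53- Rb- Myc+ and p53- Myc+ arrays, for Krt7, Krt18 and Krt19. Some of the passing steps ran between p53- Rb- Myc+ and p53- arrays (Krt5 and Krt14, where 29.9% of all genes passed in either direction) or between p53- Rb- Myc+ and WT arrays (Krt7, Krt8 and Krt19, 45.4%). For Krt15 and Krt23, which had a step between p53- Myc+ and p53- Rb- arrays (36.6%), no step passed. The order of the p53- Rb-, p53- and WT levels was not resolved between neighbours for any member.

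**Figure D1:**
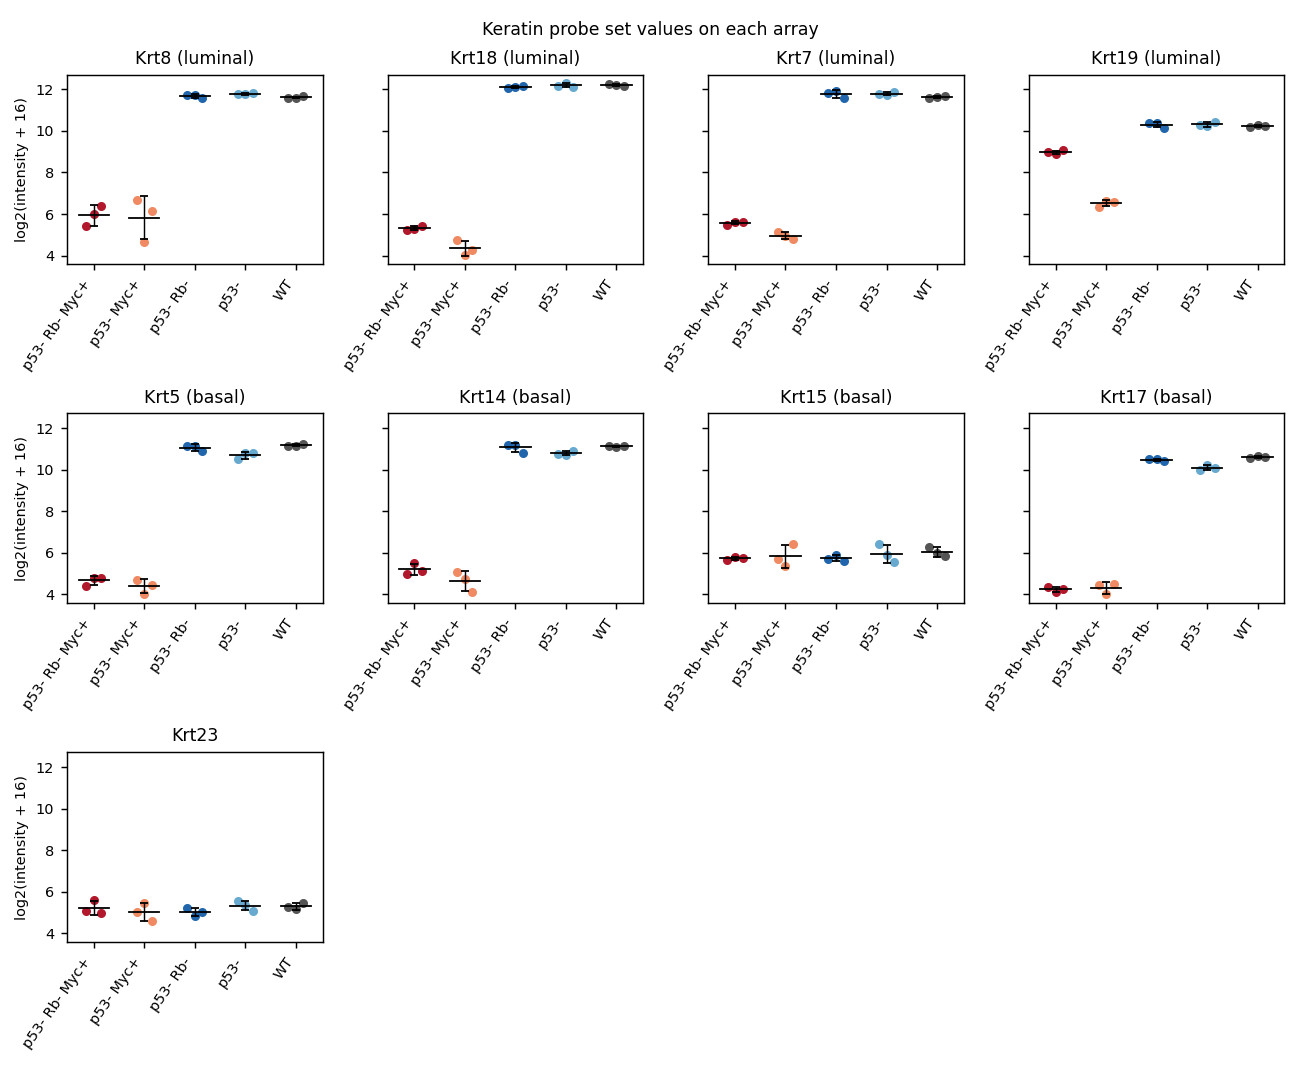
Each point is 1 array and shows log2(intensity + 16) of a keratin's probe set on the vertical axis, for the 5 groups on the horizontal axis, and bars give the group mean ± SD (n = 3). Krt18, Krt7, Krt5, Krt14 and Krt17 lie low in both Myc+ groups, Krt8 lies around the array medians there, Krt19 lies in between in p53- Rb- Myc+ cells, and the groups of Krt15 and Krt23 overlap.

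The luminal keratins fell in p53- Myc+ cells against p53- cells. Of all 9 members 7 passed as lower and 0 as higher, where 20.2% of all genes passed as lower and 33.3% in either direction (limma on log2(intensity + 16), 2-sided, Benjamini-Hochberg adjusted over 19938 genes, threshold 0.05). Krt18, the type I partner of Krt8, read 10.7, 0.471 and 3.17 on p53- Myc+ arrays, against 4574, 5010 and 4424 on p53- arrays. It was among the brightest probe sets of every p53- array and far below the array median on every p53- Myc+ array, and it had the smallest p of all genes in this comparison (log2 fold change -7.85 ± 0.17 SE, adjusted p = 4.1e-19). Krt7, the type II chain of luminal and ductal cells, read 19.7, 14.7 and 11.99 on p53- Myc+ arrays, against 3462, 3395 and 3686 on p53- arrays, with the next smallest p (-6.82 ± 0.15, adjusted p = 7.24e-19). Neither gene had overlapping groups, and neither did the other 5 members that fell, so 7 of 9 members did not overlap, where 42.6% of all genes did not.

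Krt8, the type II partner of Krt18, read 86.1, 9.45 and 55.4 on p53- Myc+ arrays, against 3450, 3490 and 3647 on p53- arrays. The groups did not overlap, but the p53- Myc+ arrays differed from each other more than for any other member that fell (-5.96 ± 0.32, limma adjusted p = 6.69e-13). Krt19, a small type I keratin that lacks most of the tail, read 65.7, 81.6 and 79.5 on p53- Myc+ arrays, against 1228, 1176 and 1379 on p53- arrays. It stayed above the array median in p53- Myc+ cells (-3.80 ± 0.15, limma adjusted p = 3.36e-15), and the 95% interval of its change, -4.11 to -3.50, lay apart from those of the other luminal chains, the nearest of which reached -5.30. The 4 luminal members had a median log2 fold change of -6.39, beside -0.09 over all genes. For probe sets this low the size of a fold moves with the constant added before taking logs. The Krt18 change was -10.13 with 1 added and -6.11 with 64 added, and the direction and call held with each.

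In p53- Rb- Myc+ cells against p53- Rb- cells the luminal keratins fell as well. Again 7 of 9 members passed as lower and 0 as higher, where 18.7% of all genes passed as lower and 36.3% in either direction. Krt18 read 22.0, 22.9 and 26.7 on p53- Rb- Myc+ arrays, against 4238, 4358 and 4492 on p53- Rb- arrays (-6.78 ± 0.17, limma adjusted p = 5.59e-18). Krt7 read 28.9, 33.3 and 32.9 on p53- Rb- Myc+ arrays, against 3626, 3902 and 3007 on p53- Rb- arrays (-6.20 ± 0.15, adjusted p = 5.59e-18). Krt8 read 26.8, 48.2 and 68.3 on p53- Rb- Myc+ arrays, against 3405, 3344 and 3009 on p53- Rb- arrays (-5.73 ± 0.32, adjusted p = 1.4e-12). Krt18 and Krt7 sat below the array median in p53- Rb- Myc+ cells and Krt8 around it, with no overlap of the groups, as in all 7 members that fell (51.2% of all genes did not overlap). Krt19 read 486, 465 and 517 on p53- Rb- Myc+ arrays, against 1315, 1306 and 1124 on p53- Rb- arrays. It fell too, but to a level well above the array median (-1.32 ± 0.15, adjusted p = 2.01e-07).

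The basal keratins Krt5, Krt14 and Krt17 fell in the same 2 comparisons. Krt5, the type II chain of basal cells, read 10.0, 0.389 and 6.14 on p53- Myc+ arrays, against 1444, 1769 and 1755 on p53- arrays (-6.30 ± 0.18, limma adjusted p = 1.91e-17). Krt14, its type I partner, read 17.7, 10.6 and 1.60 on p53- Myc+ arrays, against 1714, 1680 and 1892 on p53- arrays (-6.15 ± 0.20, adjusted p = 1.55e-16). Krt17, a type I chain known for its rise in stressed and wounded epithelium, read 5.85, 0.00288 and 6.85 on p53- Myc+ arrays, against 1005, 1192 and 1055 on p53- arrays (-5.78 ± 0.16, adjusted p = 1.34e-17). The groups were far apart for each of the 3 genes. In p53- Rb- Myc+ against p53- Rb- arrays the changes were -6.38 ± 0.18 for Krt5, -5.85 ± 0.20 for Krt14 and -6.23 ± 0.16 for Krt17 (adjusted p from 8.31e-18 to 4.77e-16). There Krt5 read 5.43, 12.2 and 12.1 on p53- Rb- Myc+ arrays, against 2268, 2271 and 1874 on p53- Rb- arrays.

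Krt15, a basal type I keratin of progenitor-rich layers, did not pass in any comparison, and neither did Krt23. Krt15 averaged 37.3 ± 3.1 on p53- Rb- Myc+ arrays, 44.3 ± 24.3 on p53- Myc+ arrays, 37.9 ± 5.2 on p53- Rb- arrays, 48.3 ± 19.6 on p53- arrays and 50.5 ± 10.9 on WT arrays (SD, n = 3 each). Krt23 averaged 22.2 ± 9.1 on p53- Rb- Myc+ arrays, 17.7 ± 10.0 on p53- Myc+ arrays, 16.9 ± 4.2 on p53- Rb- arrays, 24.7 ± 6.3 on p53- arrays and 23.5 ± 4.7 on WT arrays. Krt15 lay around the array medians, between percentiles 31.8 and 62.2 of an array, and Krt23 below the median on every array, and the groups of both genes overlapped in each of the 6 comparisons of 2 groups.

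**Figure D2:**
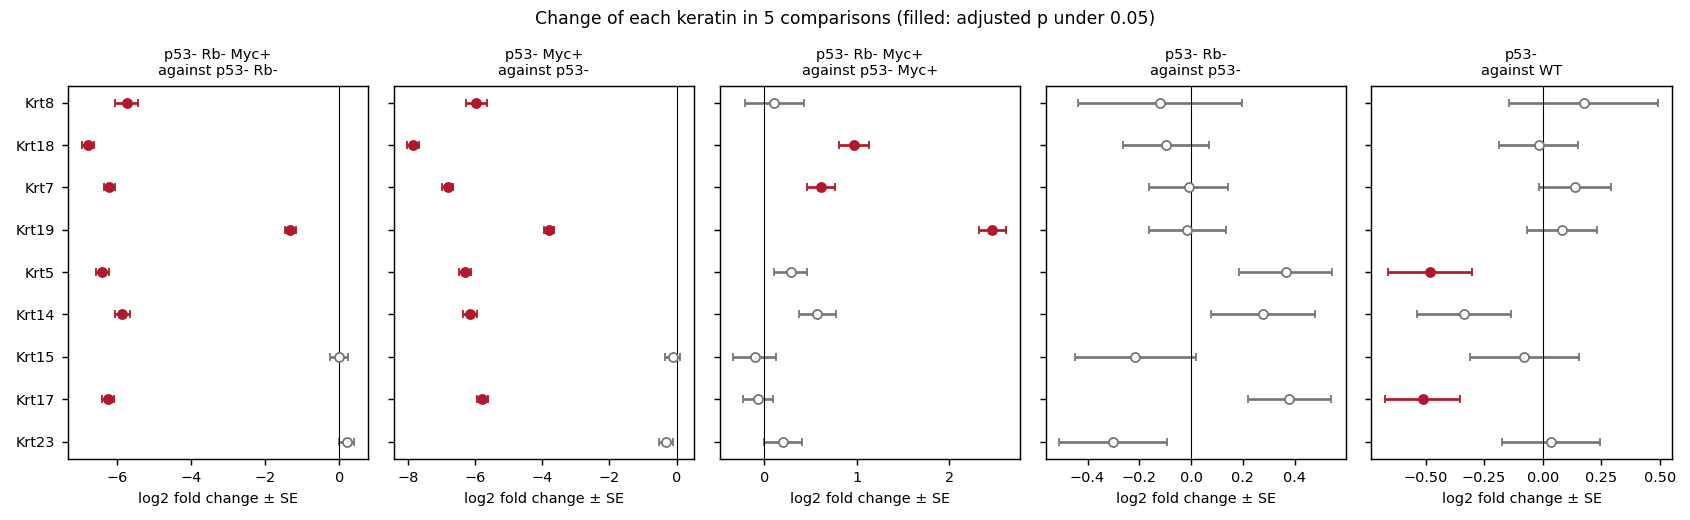
The horizontal axis of each panel gives the log2 fold change ± SE of the 9 keratins in 1 of 5 comparisons, and filled points mark a limma adjusted p under 0.05. In the 2 comparisons of Myc+ with non-Myc+ arrays 7 of 9 keratins are filled on the negative side, in p53- Rb- Myc+ against p53- Myc+ arrays Krt18, Krt7 and Krt19 are filled on the positive side, and in p53- against WT arrays Krt5 and Krt17 are filled on the negative side.

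Between the 2 Myc+ groups 3 luminal keratins were higher where Rb was deleted as well. In p53- Rb- Myc+ against p53- Myc+ cells 3 of 9 members passed as higher and 0 as lower, where 3.29% of all genes passed as higher and 4.69% in either direction. Krt19 read 486, 465 and 517 on p53- Rb- Myc+ arrays, against 65.7, 81.6 and 79.5 on p53- Myc+ arrays, a 5.53-fold difference on the log2(intensity + 16) scale with all 3 arrays of 1 group above all 3 of the other (log2 fold change 2.47 ± 0.15, limma adjusted p = 9.79e-11). Krt18 read 22.0, 22.9 and 26.7 on p53- Rb- Myc+ arrays, against 10.7, 0.471 and 3.17 on p53- Myc+ arrays (0.97 ± 0.17, adjusted p = 0.000516). The Krt18 call held under all 24 alternatives, but its size ran between 0.36 with 64 added and 2.58 with 1 added. Krt7 averaged 31.7 ± 2.4 on p53- Rb- Myc+ arrays and 15.4 ± 3.9 on p53- Myc+ arrays (SD, n = 3 each; 0.61 ± 0.15, adjusted p = 0.0194). The Krt18 and Krt7 arrays did not overlap either, which makes 3 of 9 members, where 20.5% of all genes did not overlap, but all of their values lay below the array medians. The Krt7 call was lost under 8 of 24 alternatives, with adjusted p between 0.0547 and 0.128, among them centring, quantile normalization and leaving out p53- Myc+ replicate 2 or 3 or p53- Rb- Myc+ replicate 2 or 3.

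Krt8, the partner of Krt18, did not pass: it averaged 47.8 ± 20.8 on p53- Rb- Myc+ arrays and 50.3 ± 38.6 on p53- Myc+ arrays (SD, n = 3 each). The 95% interval of its change ran from -0.55 to 0.77 on the log2 scale. That interval held the Krt7 change of 0.61 but not those of Krt18 (0.97) and Krt19 (2.47). The basal members did not pass. Krt14 was nearest, at 15.96, 29.7 and 19.5 on p53- Rb- Myc+ arrays against 17.7, 10.6 and 1.60 on p53- Myc+ arrays, with groups that overlapped (0.57 ± 0.20, limma adjusted p = 0.124), and it passed without p53- Myc+ replicate 1 (adjusted p = 0.03). Krt5 (0.28 ± 0.18) and Krt17 (-0.07 ± 0.16) had adjusted p of 0.514 and 0.901. The median change was 0.79 for the 4 luminal and 0.11 for the 4 basal members, beside 0.05 over all genes.

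The change with the Rb- label differed between cells with and without the Myc+ label for 2 luminal keratins. This was tested as the change of p53- Rb- Myc+ against p53- Myc+ minus the change of p53- Rb- against p53-, in which 8.78% of all genes passed as higher and 13.6% in either direction. The split of all genes in this test turned with the scaling: it was 1751 higher and 968 lower as reported, 841 and 2076 with the arrays centred, and 1151 and 1313 with quantile normalization. Krt19 changed by 2.47 with and by -0.02 without the Myc+ label, a difference of 2.48 ± 0.21 (limma adjusted p = 4.36e-08). Krt18 changed by 0.97 with and by -0.10 without the Myc+ label, a difference of 1.06 ± 0.24 (adjusted p = 0.0041). Both calls held under all 24 alternatives. The Krt19 difference ran between 2.00 and 2.70, while that of Krt18, whose Myc+ readings were low in both groups, ran between 0.45 and 2.67 (adjusted p up to 0.0283). Krt7 did not pass (0.62 ± 0.22, adjusted p = 0.0619) but did under 4 of 24 alternatives, and the other 6 members had adjusted p between 0.195 and 0.865. Among those 6 the basal Krt17 passed with 64 added, with the opposite sign (-0.39, limma adjusted p = 0.0342). The same contrast is also the Myc+ change with the Rb- label minus that without it: Krt19 fell by 1.32 in p53- Rb- cells and by 3.80 in p53- cells.

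**Figure D3:**
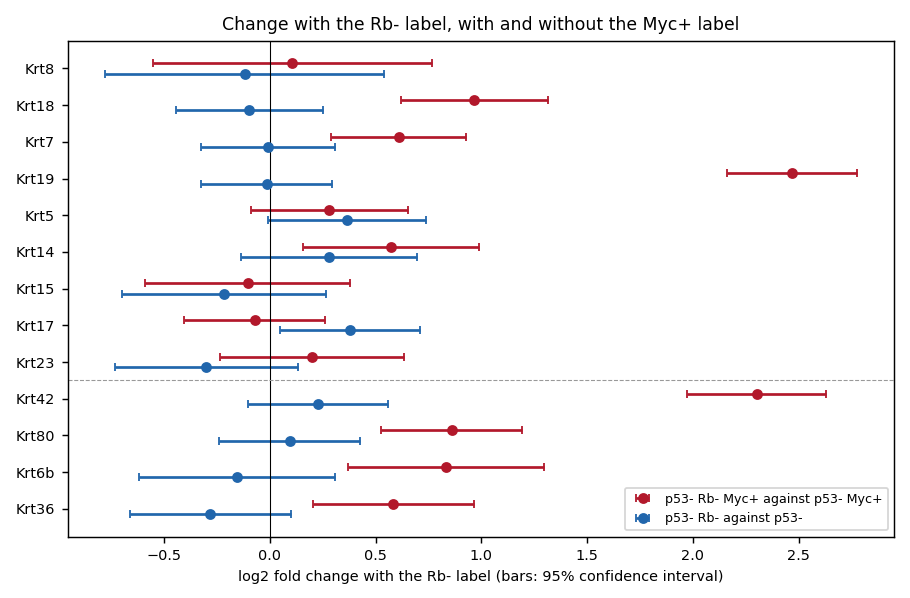
The horizontal axis gives the log2 fold change with the Rb- label and its 95% confidence interval, in red for p53- Rb- Myc+ against p53- Myc+ arrays and in blue for p53- Rb- against p53- arrays, with the 9 members above the dashed line and 4 other keratins below it. The intervals of Krt19 and Krt42 lie far apart and those of Krt18 lie apart, while those of the basal members overlap.

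In cells in which p53 alone was deleted 2 basal keratins were lower. In p53- against WT cells 2 of 9 members passed as lower, Krt5 and Krt17, and 0 as higher, where 9.72% of all genes passed as lower and 29% in either direction. Krt17 read 1005, 1192 and 1055 on p53- arrays, against 1492, 1628 and 1531 on WT arrays (-0.51 ± 0.16, limma adjusted p = 0.0195). Krt5 read 1444, 1769 and 1755 on p53- arrays, against 2240, 2267 and 2426 on WT arrays (-0.48 ± 0.18, adjusted p = 0.0475). For Krt17 as for Krt5 every p53- array lay below every WT array, and the level in p53- cells was 0.701 times that of WT cells for Krt17 and 0.716 times for Krt5. Krt14 read 1714, 1680 and 1892 on p53- arrays, against 2253, 2168 and 2258 on WT arrays. It had no overlap either but did not pass (-0.34 ± 0.20, adjusted p = 0.216).

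These differences were small and depended on the treatment of the arrays. The Krt5 call was lost under 14 of 24 alternatives (adjusted p from 0.00223 to 0.542 over all 24), including each one that left out a single p53- or WT array, and the Krt17 call under 4, namely when p53- replicate 1 (0.0762), p53- replicate 3 (0.0688) or WT replicate 2 (0.0585) was left out and with 1 in place of 16 added (0.528). The array medians were 53.5, 49.6 and 54.9 on p53- arrays, against 47.1, 46.8 and 41.3 on WT arrays, and centring each array on its median moved the median change of all genes to -0.05 from 0.12. Measured from the median of all genes, Krt5 was at -0.61, Krt17 at -0.64 and Krt14 at -0.46. Centred, Krt14 passed too (-0.51, limma adjusted p = 0.047).

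The luminal keratins did not pass in p53- against WT cells. Krt7 read 3462, 3395 and 3686 on p53- arrays, against 3089, 3198 and 3302 on WT arrays, and Krt8 read 3450, 3490 and 3647 on p53- arrays, against 3069, 3094 and 3212 on WT arrays. In both genes each p53- array lay above each WT array, but the changes of 0.14 ± 0.15 and 0.17 ± 0.32 stood beside a median of 0.12 over all genes, and centring brought Krt7 to -0.03. Krt18 (-0.02 ± 0.17) and Krt19 (0.08 ± 0.15) overlapped. Groups did not overlap for 5 of 9 members, where 40.3% of all genes had groups that did not overlap. The 4 luminal members had a median change of 0.11 and the 4 basal members of -0.41, beside 0.12 over all genes.

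Deletion of Rb in p53- cells did not change any keratin past the threshold. In p53- Rb- against p53- cells 0 of 9 members passed, where 19.8% of all genes passed in either direction, and 1 member, Krt17, had an unadjusted limma p under 0.05 (0.0267). Krt17 read 1461, 1429 and 1348 on p53- Rb- arrays, against 1005, 1192 and 1055 on p53- arrays (0.38 ± 0.16, adjusted p = 0.0989). Krt5 read 2268, 2271 and 1874 on p53- Rb- arrays, against 1444, 1769 and 1755 on p53- arrays (0.37 ± 0.18, adjusted p = 0.157). The groups did not overlap in these 2 genes and in Krt8, so in 3 of 9 members, where 40% of all genes did not overlap. Krt5 and Krt17 passed as higher when the arrays were centred (Krt5 0.55, adjusted p = 0.0352, and Krt17 0.56, adjusted p = 0.0205), where the median of all genes moved to 0.10 from -0.08. Krt14 read 2356, 2308 and 1798 on p53- Rb- arrays, against 1714, 1680 and 1892 on p53- arrays, with overlap (0.28 ± 0.20, adjusted p = 0.345). The luminal changes ran from -0.12 for Krt8 to -0.01 for Krt7, and all of their 95% intervals held 0.

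In p53- Rb- against WT cells 0 of 9 members passed, where 14.6% of all genes did, and 0 had an unadjusted limma p under 0.05. Groups did not overlap for 2 of 9 members, Krt17 and Krt18, both lower, where 31.3% of all genes did not overlap. The basal Krt5, Krt14 and Krt17 changed by -0.12 ± 0.18, -0.06 ± 0.20 and -0.13 ± 0.16, with 95% intervals from -0.49 to 0.26, from -0.47 to 0.36 and from -0.46 to 0.20. These values stand beside -0.48, -0.34 and -0.51 in p53- against WT cells. The 3 comparisons among WT, p53- and p53- Rb- share arrays, so the lower basal values of the p53- arrays enter 2 of them with opposite sign.

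The other keratin genes varied in how they responded. Of 43 other keratins measured, 8 passed as lower and 1 as higher in p53- Myc+ against p53- cells, with a median of -0.18, and 7 as lower and 4 as higher in p53- Rb- Myc+ against p53- Rb- cells. The lower ones were 18.6% and 16.3% of the 43, near the 20.2% and 18.7% of all genes that passed as lower. Those with the smallest p were Krt6a, a type II chain of stressed and hair follicle epithelium (-4.61 in p53- Myc+ against p53- cells and -5.16 in p53- Rb- Myc+ against p53- Rb- cells), Krt42 (-3.27 and -1.20), Krt80, an epithelial type II chain (-2.78 and -2.02), and Krt16, a partner of Krt6 in activated epidermis (-2.03 and -2.54). Their calls held under every alternative tried, but the sizes moved with the constant added, for Krt6a between -2.91 and -7.49 in p53- Myc+ against p53- cells. Many of the 43 are hair and epidermal keratins with little signal here: 21 lay below the array median on all 3 p53- arrays and 14 above it. The keratins of a cluster resemble each other in sequence and the probe sequences were not used here, so reading of a neighbour's transcript, as between Krt14, Krt16 and Krt17, was not tested.

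The other keratins that were higher in p53- Rb- Myc+ than in p53- Myc+ cells were Krt42, Krt80 and Krt6b, 3 of 43 (6.98%, beside 3.29% of all genes as higher), with 0 lower. Krt42 averaged 109.3 ± 11.1 on p53- Rb- Myc+ arrays and 9.68 ± 5.2 on p53- Myc+ arrays, against 270.8 ± 22.3 on p53- Rb- arrays and 228.5 ± 4.3 on p53- arrays (SD, n = 3 each). Its groups stood apart as those of Krt19 did, with a change of 2.30 ± 0.16 between the Myc+ groups (limma adjusted p = 8.04e-10) and a difference of the 2 Rb changes of 2.07 ± 0.23 (adjusted p = 1.68e-06). Over 24 alternatives the first ran between 1.23 and 3.47 and the second between 1.04 and 3.23, with the calls held. Krt80 changed by 0.86 and Krt6b by 0.83, and the Krt6b call was lost under 6 of 23 alternatives (adjusted p up to 0.293). On chromosome 11 the coding genes run Krt13, Krt15, Krt19, Krt9, Krt14, Krt16, Krt17, Krt42 and Eif1. Krt42 lies beside Krt17, which was low in both Myc+ groups. Krt19 lies between Krt15, which passed in no comparison, and Krt9. On chromosome 15 Krt80 lies beside Krt7. The part of gene order in these results was not tested.

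In p53- against WT cells 4 other keratins passed as lower and 2 as higher, which is 9.3% of the 43 as lower and 14% in either direction, beside 9.72% and 29% of all genes. Krt16 averaged 82.3 ± 4.9 on p53- arrays and 295.5 ± 14.2 on WT arrays (SD, n = 3 each), the smallest p of all keratins measured in this comparison (-1.66 ± 0.14, limma adjusted p = 6.77e-08). Krt6a averaged 442.2 ± 60.1 on p53- arrays and 921.5 ± 116.5 on WT arrays (-1.03 ± 0.18, adjusted p = 0.000223, and 0.263 with 1 added), and Krt6b changed by -1.24 ± 0.22. These partners of activated epidermis were lower alongside Krt17, and Krt87 was higher (0.61 ± 0.17), a call lost under 2 of 23 alternatives. In p53- Rb- against WT cells Krt16 (-1.29), Krt6b (-1.40), Krt6a (-0.55) and Krt90 (-0.65) passed as lower and 0 of 43 as higher, so 9.3% passed, beside 14.6% of all genes. The Krt90 call was lost under 7 of 24 alternatives (adjusted p up to 0.201) and the Krt6a call under 6 (up to 0.64).

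Transcripts of the proteins that anchor keratin filaments were lower under the Myc+ label too. Of 17 genes of desmosomes, hemidesmosomes and linker proteins 15 passed as lower and 0 as higher in each of the 2 comparisons with the Myc+ label. Of all genes 20.2% passed as lower in p53- Myc+ against p53- cells and 18.7% in p53- Rb- Myc+ against p53- Rb- cells. Perp, a desmosomal membrane protein, changed by -5.09 in p53- Myc+ against p53- cells and by -4.53 in p53- Rb- Myc+ against p53- Rb- cells. Dsp, the plaque protein that binds keratin filaments, changed by -4.65 and -4.20, and Itgb4, the hemidesmosomal integrin, by -4.67 and -4.42. In p53- Rb- Myc+ against p53- Myc+ cells 4 of the 17 were higher and 0 lower: Ppl (1.88), Jup (1.78), Itga6 (1.57) and Dsc2 (0.71). Of all genes 3.29% passed as higher there. Jup, the plaque protein plakoglobin, averaged 203.7 ± 36.5 on p53- Rb- Myc+ arrays and 48.1 ± 12.04 on p53- Myc+ arrays (SD, n = 3 each).

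Listed transcription and splicing factors of epithelium were mostly lower under the Myc+ label too. Whether they act on the keratins was not tested. Of 17 such genes 16 passed as lower in p53- Myc+ against p53- cells and 15 in p53- Rb- Myc+ against p53- Rb- cells, with 0 higher. Of all genes 20.2% and 18.7% passed as lower in these comparisons. Esrp1, an epithelial splicing factor, changed by -4.57 and -4.16, Gata3, a luminal factor, by -4.29 and -4.10, and Tfap2a by -4.73 in p53- Myc+ against p53- cells. Trp63, the basal lineage factor, averaged 6.43 ± 2.1 on p53- Rb- Myc+ and 10.1 ± 3.9 on p53- Myc+ arrays, against 150.8 ± 7.5 on p53- Rb-, 197.2 ± 43.5 on p53- and 324.6 ± 61.1 on WT arrays (SD, n = 3 each). Klf5, a zinc finger factor of proliferating epithelium, and Tfap2a were the 2 that were higher in p53- Rb- Myc+ than in p53- Myc+ cells (1.55 ± 0.16 and 0.97 ± 0.20, limma adjusted p = 3.86e-07 and 0.00321), and Tfap2a did not pass with 64 added (adjusted p = 0.0943). In p53- against WT cells 8 of the 17 passed as lower, led by Elf5 (-1.47), Ehf (-1.27) and Esrp2 (-0.98), where 9.72% of all genes passed as lower.

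Factors of the epithelial to mesenchymal transition went the other way under the Myc+ label. Of 7 such genes 5 passed as higher in p53- Myc+ against p53- cells and 6 in p53- Rb- Myc+ against p53- Rb- cells, with 0 lower. Of 19938 genes 2604 and 3517 passed as higher there. Some of the 7 also passed without the Myc+ label. There no luminal keratin passed, and the basal Krt5 and Krt17 passed as lower in p53- against WT cells. The part of these factors in the keratin results was not tested. In p53- against WT cells 4 of the 7 factors were higher and 1 lower (3843 of all genes higher). In p53- Rb- against p53- cells 3 were higher and 1 lower (1867), and in p53- Rb- against WT cells 3 and 0 (2155). Their summed intensity was 3522 to 3998 on p53- Rb- Myc+ arrays and 4068 to 4830 on p53- Myc+ arrays, against 1792 to 2733 on p53- Rb-, 1364 to 1577 on p53- and 1435 to 1495 on WT arrays. Twist2 changed by 2.58 in p53- Myc+ against p53- cells and by 1.33 in p53- Rb- Myc+ against p53- Rb- cells, and Prrx1 by 1.99 and 1.02. In p53- Rb- Myc+ against p53- Myc+ cells, where Krt19 was higher, 1 of the 7 passed, Zeb1, and it was higher too (0.66 ± 0.19, limma adjusted p = 0.0407), a call lost under 13 of 24 alternatives (adjusted p up to 0.199).

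Among 10 other intermediate filament genes, Vim, the vimentin gene of mesenchymal and many cultured cells, averaged 3083 ± 197.7 on p53- Rb- Myc+ arrays, 2740 ± 196.3 on p53- Myc+ arrays, 2503 ± 343.2 on p53- Rb- arrays, 1682 ± 33.3 on p53- arrays and 1065 ± 82.1 on WT arrays (SD, n = 3 each). It rose in p53- against WT cells (0.65 ± 0.15, limma adjusted p = 0.00272), in p53- Rb- against p53- cells (0.56 ± 0.15, adjusted p = 0.0115, and 0.0787 without p53- Rb- replicate 3) and in p53- Myc+ against p53- cells (0.70 ± 0.15, adjusted p = 0.000835). It did not pass in p53- Rb- Myc+ against p53- Rb- cells (0.31 ± 0.15, adjusted p = 0.121). Vimentin message was thus present on every array, also where the keratins were high. Nes, the nestin gene, rose in p53- against WT cells (1.30 ± 0.16). It fell in p53- Myc+ against p53- cells (-3.24 ± 0.16) and in p53- Rb- Myc+ against p53- Rb- cells (-1.46 ± 0.16). It was higher in p53- Rb- Myc+ than in p53- Myc+ cells (1.13 ± 0.16). Of the 10 genes 1 passed as higher and 1 as lower in p53- Myc+ against p53- cells (33.3% of all genes in either direction). In p53- Rb- Myc+ against p53- Rb- cells 0 passed as higher and 2 as lower (36.3%), and in p53- against WT cells 4 and 1 (29%).

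Markers of other cells moved with the groups. Of all 19938 genes, 2604 passed as higher and 4036 as lower in p53- Myc+ against p53- cells. These counts were 3517 and 3730 in p53- Rb- Myc+ against p53- Rb- cells and 656 and 279 in p53- Rb- Myc+ against p53- Myc+ cells. They were 3843 and 1937 in p53- against WT cells and 1867 and 2083 in p53- Rb- against p53- cells. The 10 fibroblast markers summed to 3261 to 4242 on p53- Rb- Myc+ arrays and 5191 to 6200 on p53- Myc+ arrays, against 6763 to 8387 on p53- Rb-, 3972 to 4216 on p53- and 4187 to 4794 on WT arrays. Beside the lower keratins of p53- Myc+ against p53- cells 5 of these 10 were higher and 2 lower. Beside the same 7 lower keratins of p53- Rb- Myc+ against p53- Rb- cells 1 was higher and 8 were lower, and beside the higher Krt19 of p53- Rb- Myc+ against p53- Myc+ cells 4 were lower and 0 higher. The 8 leukocyte markers summed to 316.2 to 330.3 on p53- Rb- Myc+, 239.4 to 256.3 on p53- Myc+, 740.8 to 829.4 on p53- Rb- and 567.7 to 707.3 on p53- arrays, against 2044 to 2438 on WT arrays, and beside the lower Krt5 and Krt17 of p53- against WT cells 4 of 8 were lower and 1 higher. Beside the higher Krt19, the 6 endothelial markers summed to 338.3 to 464.4 on p53- Rb- Myc+ arrays and 128.6 to 166.8 on p53- Myc+ arrays, where 1 of 6, Cd34, was higher (2.31). Their sums were 448.3 to 464.9 on p53- Rb-, 277.2 to 358.4 on p53- and 361.5 to 492.2 on WT arrays. In p53- Rb- Myc+ against p53- Rb- cells 2 of these 6 were higher and 2 lower, and in p53- Myc+ against p53- cells 0 and 3. The 6 myoepithelial contractile genes had 1 lower and 0 higher in p53- against WT cells, and 3 higher, led by Cnn1 (1.36), in p53- Rb- against p53- cells. Beside the lower basal keratins 3 of these 6 were lower and 1 higher in p53- Myc+ against p53- cells (Cnn1 -3.22), and 4 were lower and 0 higher in p53- Rb- Myc+ against p53- Rb- cells (Cnn1 -5.00). Within the p53- group, replicate 2 had higher sums of epithelial markers (8904, against 6873 and 6547 on replicates 1 and 3) and of myoepithelial markers (3435, against 2162 and 2068), while its basal keratins summed to 4685, against 4232 and 4733. The part of these markers in the keratin results was not tested.

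**Figure D4:**
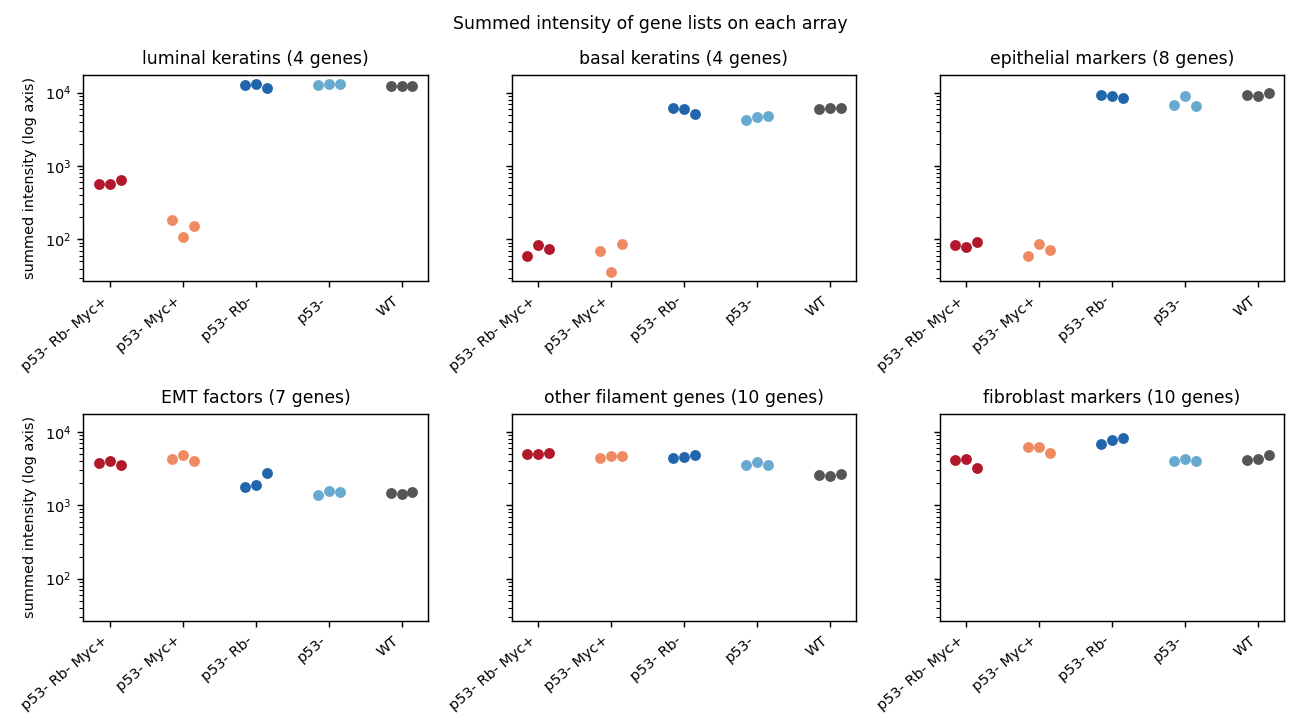
Each point is the summed intensity, on a log axis, of the genes of a list on 1 array, for the 5 groups on the horizontal axis. The luminal and basal keratins and the epithelial markers are lower on all 6 Myc+ arrays than on the other 9, the luminal sum is higher on p53- Rb- Myc+ arrays (563.3 to 645.3) than on p53- Myc+ arrays (106.2 to 182.1), mostly through Krt19 (465 to 517, against 65.7 to 81.6), and the EMT factor sum is highest in the 2 Myc+ groups.

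Without Krt19 the luminal sum was 77.7, 104.4 and 127.9 on p53- Rb- Myc+ arrays, against 116.4, 24.6 and 70.6 on p53- Myc+ arrays, so the groups overlapped.

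The genes whose pattern was most like that of the keratins were sought among genes at or above the median level. Over all 15 arrays the mean log2 value of the 4 luminal members was followed most closely by Wfdc2 (Pearson r = 0.997), Tcim, Dynap, Perp and Klk8, and that of the 4 basal members by Sfn (0.999), St14, Serinc2, Spint2 and Cldn7. Ebf3 ran opposite to both (-0.989 for luminal and -0.996 for basal). These 15 arrays fall into 2 clusters by the Myc+ label and the coefficients mostly restate that split. Wfdc2, a secreted epithelial protein, averaged 19.9 ± 6.5 on p53- Rb- Myc+ and 8.18 ± 6.4 on p53- Myc+ arrays, against 3205 ± 120.1 on p53- Rb-, 3230 ± 118.3 on p53- and 3381 ± 255.3 on WT arrays (SD, n = 3 each). Over the 9 arrays without the Myc+ label the closest genes were others, Uso1 (0.961), Clcn4, Strbp, Stk39 and Osbpl9 for the luminal and Ctns (0.972), Crip2, Tmc4, Heg1 and Kcnj15 for the basal mean. There the luminal mean varied little, with group means of 11.46 on p53- Rb-, 11.52 on p53- and 11.43 on WT arrays on the log2 scale. The basal mean was 9.59 on p53- Rb-, 9.39 on p53- and 9.74 on WT arrays.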

How the data were processed

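RNA from 15 samples, 3 in each of 5 groups taken from the sample labels, was read on Affymetrix Mouse Gene arrays. The authors deposited 1 intensity for each probe set and array. Per the submitters' processing notes these came from Affymetrix Expression Console 1.1. How probe sets were summarised, any scaling between arrays and the genome build: not given in the sources used here. Values ran from 4.11e-05 to 8348 and were taken as linear, although log2 values had been the first case of the plan.

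Of 35556 probe sets 21789 had 1 gene symbol, 1621 several and 12146 were not listed in the platform annotation used. Each of 19938 genes was read from the single-symbol probe set that was brightest on average. The symbols of all 9 keratins were the same through their Entrez numbers. All 15 arrays entered 1 fit of group means on log2(intensity + 16) with limma 3.58.1 in R 4.3.3 (10 residual and 11.78 prior degrees of freedom), with a 2-sided threshold of 0.05 after Benjamini-Hochberg adjustment across every gene. The 3 arrays per group limit the precision. Changes are log2 fold changes ± SE. The fit was tested on simulated data.

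The members and gene lists were chosen with earlier results of these data known. The genes named are the 9 members, Rb1 and Myc, up to 3 genes with the smallest p per list and comparison, up to 4 other keratins per comparison, and the genes most like the keratin means. Dsc2 was added after its values were seen. Alternatives were 1 or 64 added, centring, quantile normalization, a filter on low genes, an intensity trend, the mean of a gene's probe sets, a replicate block, leaving out each array, and the compared groups alone. Deviations of same-numbered arrays from their group means correlated at 0.102, 0.192 and 0.379 between p53- Rb- Myc+ and p53- Myc+ arrays, and not all above 0.1 in any other comparison, so for those 2 groups the numbers may pair the arrays, on the strength of the values alone. The reported values carry no pairing, and the block is 1 of the alternatives. The p53 transcript is not reported here. Start regions are from RefSeq (GRCm38.p6).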

Additional observations from a re-analysis of the deposited data

Results flagged for a closer look

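The change of Krt19 with the Rb- label differed between cells with and without the Myc+ label by 2.48 on the log2 scale (limma adjusted p = 4.36e-08). It was higher on 3 of 3 p53- Rb- Myc+ arrays than on every p53- Myc+ array, and p53- Rb- and p53- arrays overlapped. The change of Krt18 differed in the same test by 1.06 (adjusted p = 0.0041), with all Krt18 values of both Myc+ groups below the array medians. What lies behind either difference was not tested.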

How the results depend on the processing

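Under 24 alternatives per comparison no member changed direction past the threshold. The count of members passing in p53- against WT was 2. It was 0 with 1 added, 3 with 64 added, 3 with centring, 1 with the groups compared alone, and 0 to 2 when single arrays were left out. In p53- Rb- against p53- the count was 0, and 2 with 64 added and 2 with centring, with 0 to 0 when single arrays were left out. Leaving out single arrays gave 0 to 0 members in p53- Rb- against WT, 7 to 7 in p53- Myc+ against p53-, 7 to 7 in p53- Rb- Myc+ against p53- Rb-, 2 to 4 in p53- Rb- Myc+ against p53- Myc+, 2 to 3 for the difference of the Rb changes, and 9 to 11 neighbouring steps. The cause of these shifts was not tested.

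With the replicate number as a block the count in p53- against WT was 1, and it changed no other count by over 1.5 times, that of p53- Rb- Myc+ against p53- Myc+ included, where the numbers may pair the arrays. Centring moved the split of all passing genes: 2312 higher and 3249 lower in p53- against WT, beside 3843 and 1937, 3472 and 1168 in p53- Rb- against p53-, beside 1867 and 2083, 3826 and 2967 in p53- Myc+ against p53-, beside 2604 and 4036, 476 and 358 in p53- Rb- Myc+ against p53- Myc+, beside 656 and 279, and 841 and 2076 for the difference of the Rb changes, beside 1751 and 968. Quantile normalization gave 2727 and 3037, 2256 and 1565, 3549 and 3349, 555 and 364, and 1151 and 1313 in these 5 comparisons. In p53- Rb- Myc+ against p53- Rb- centring gave 2617 higher and 4137 lower, beside 3517 and 3730, and quantile normalization gave 3189 and 3832. The Myc+ readings of Krt18, Krt7, Krt5, Krt14 and Krt17 lie below the array medians, where fold sizes depend on the constant added and detection calls were not used here.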
